A study of Mus musculus with 4 samples.

Results

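The STAT genes encode signal transducers and activators of transcription, and 6 of them (Stat2, Stat3, Stat4, Stat5a, Stat5b and Stat6) were described in mouse regulatory T cells. They were found by symbol among the 50600 genes of the deposited count files, and all 6 were matched. The study sequenced RNA of regulatory T cells, CD4+ T cells that restrain immune responses, from mice of strain C57BL/6NJ. It holds 4 libraries, labelled as biological replicates 1 to 4 of 1 group, with no treated or control group beside it. The labels give these as primary cells of unknown age and tie all 4 libraries to 1 donor record, without saying whether separate animals were used. The p-values therefore measure only the spread between these libraries, part of which may be technical. The labels title the assay as total RNA-seq while linking a library protocol named for polyA+ RNA. A helper T cell differentiation protocol is linked in the labels, and the names inside the files add that the cells were activated, sorted and taken at 72 h.

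STAT proteins wait in the cytoplasm until a cytokine binds its receptor. Janus kinases (JAKs) on the receptor then phosphorylate a tyrosine of the STAT, which pairs with another STAT and enters the nucleus to bind DNA. Which STAT is used depends on the cytokine. STAT5A and STAT5B carry the interleukin-2 signal on which regulatory T cells depend, STAT6 that of interleukin-4, STAT3 those of interleukin-6, interleukin-10 and interleukin-21, STAT4 that of interleukin-12, and STAT2 that of type I interferon.

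The libraries held 32648138 to 94983494 counts. Replicate 4 was the shallowest, followed by replicate 1 (46044354) and replicate 2 (72147632), and replicate 3 was the deepest. All 7 regulatory T cell markers examined reached 1 TPM, a level corrected for gene length and library size, in all 4 libraries. Markers of other cells summed to 0.663 to 1.04 TPM over 3 B cell genes, 1.19 to 2.85 over 4 myeloid genes, 1.58 to 2.71 over 3 NK cell genes and 12.6 to 16.6 over 3 CD8 T cell genes. Of the CD8 genes Cd8b1 carried nearly the whole sum, and Cd8a stood at 0.00 to 0.67 TPM. The other sums also lay mostly in 1 gene each. These were Eomes for NK cells (1.96 ± 0.496 TPM), Adgre1 for myeloid cells (1.75 ± 0.721) and Cd79a for B cells (0.747 ± 0.194). Ncr1, of NK cells, and Gzmk, of CD8 T cells, had no count. In bulk RNA, fewer cells of a type and less RNA per cell cannot be told apart. For 29 of the 51 genes whose variation passed the test given further on, the most deviant library was replicate 1. The X-inactivation RNA Xist measured 312 and 331 TPM in replicates 1 and 2 but 0.539 and 2.38 TPM in replicates 3 and 4. That split goes against 1 animal as the source of all 4 libraries, whatever the single donor record stands for. Gm42418, a gene that overlaps ribosomal RNA sequence, measured 11891 TPM in replicate 1 and 4335, 2980 and 1555 TPM in replicates 2 to 4.

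The 6 genes lie on 3 chromosomes, in mm10 coordinates as deposited. Stat5b (chr11:100780731-100850724, minus strand), Stat5a (chr11:100859351-100885169, plus strand) and Stat3 (chr11:100885098-100939540, minus strand) stand side by side. Stat5b and Stat5a are 8626 bases apart and run away from each other, and the ends of Stat5a and Stat3 overlap by 72 bases on opposite strands, which the strand-specific counting kept apart. Stat6 (chr10:127642986-127660957) and Stat2 (chr10:128270559-128292849) are both on the plus strand of chromosome 10. Stat4 (chr1:51987148-52107189) is on the plus strand of chromosome 1.

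Sequence decides how well reads of the STAT5 pair can be told apart, since the counting command has no option to count reads that fit several places. The coding sequences of the Stat5a and Stat5b principal transcripts were 90.7% identical over 2343 aligned bases. Their longest identical stretch was 324 bases, over exons 7 to 9 of Stat5a (chr11:100874023-100874983) and exons 6 to 8 of Stat5b (chr11:100797741-100798701). With its introns it spanned 961 bases in both genes. Both edges of the stretch are shown because they are where a read first becomes assignable to 1 gene. Capitals mark the bases that differ, and each line holds 100 bases of the identical stretch and 20 beyond it, from the GENCODE M21 transcripts.
Stat5a first edge (chr11:100874003-100874122, plus strand): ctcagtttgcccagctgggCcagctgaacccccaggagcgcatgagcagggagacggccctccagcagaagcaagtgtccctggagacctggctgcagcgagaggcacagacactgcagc
Stat5b first edge (chr11:100798602-100798721, minus strand): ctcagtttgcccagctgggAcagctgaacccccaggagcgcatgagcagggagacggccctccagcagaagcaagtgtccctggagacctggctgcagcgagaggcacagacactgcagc
Stat5a last edge (chr11:100874452-100875003, plus strand, across an intron): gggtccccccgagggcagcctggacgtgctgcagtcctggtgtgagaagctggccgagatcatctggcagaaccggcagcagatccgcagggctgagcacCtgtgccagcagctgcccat
Stat5b last edge (chr11:100797721-100798272, minus strand, across an intron): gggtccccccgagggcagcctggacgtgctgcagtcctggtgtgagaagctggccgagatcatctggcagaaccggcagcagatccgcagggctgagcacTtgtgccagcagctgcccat
Of all 100-base windows of the transcript, 6.99% were shared with the partner gene in Stat5a and 5.18% in Stat5b. With 50-base windows 16.4% of Stat5a windows occurred in another gene's transcript, those of Stat5b or, on the opposite strand, Stat3, and 11.8% of Stat5b windows, all in Stat5a. The principal transcripts of Stat2, Stat3 and Stat6 shared no window of either length with a transcript of another gene, on either strand, and Stat4 shared 24.1% of its 100-base windows, all with Gm28177. These shares describe the transcripts, and the error they leave in the split of counts between Stat5a and Stat5b was not measured.

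Stat5b and Stat5a, the STAT5 pair, were both abundant. Stat5b, given in TPM computed over all exons of a gene, measured 248, 270, 269 and 254 in replicates 1 to 4, with a mean of 260 ± 11.1 (SD, n = 4). Stat5a measured 194, 184, 179 and 170 TPM, with a mean of 182 ± 9.74. Stat5b was thus lowest in replicate 1, where Stat5a was highest, and the values of the genes did not overlap on this scale. The counts behind them were 14142 to 43980 for Stat5b and 12208 to 37723 for Stat5a.

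Stat6, the interleukin-4 STAT, had the steadiest level of the 6 genes. It measured 274, 284, 282 and 286 TPM, with a mean of 282 ± 5.40 and a coefficient of variation of 1.92%. No library stood apart, and the counts ran from 12669 to 36604.

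Stat3, the STAT of interleukin-6 and interleukin-21, took the most counts of the 6 genes, 20599 to 68684 per library. Per length it measured 207, 241, 244 and 215 TPM, with a mean of 227 ± 18.7. The level was lower in replicates 1 and 4 than in replicates 2 and 3. Stat5b had the same split, and replicates 1 and 4 were also the libraries with the fewest counts; the part of depth in this was not tested.

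Stat2 and Stat4 were the low members. Stat2, which joins IRF9 in the interferon-activated complex ISGF3, measured 29.6, 37.0, 34.5 and 33.1 TPM (mean 33.6 ± 3.07), from 1973 to 6040 counts. Stat4, the interleukin-12 STAT of Th1 cells, measured 20.7, 24.0, 25.8 and 27.9 TPM (mean 24.6 ± 3.08), from 1087 to 2952 counts. Its values did not overlap with those of Stat2 on this scale, and both genes were lowest in replicate 1.

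**Figure D1:**
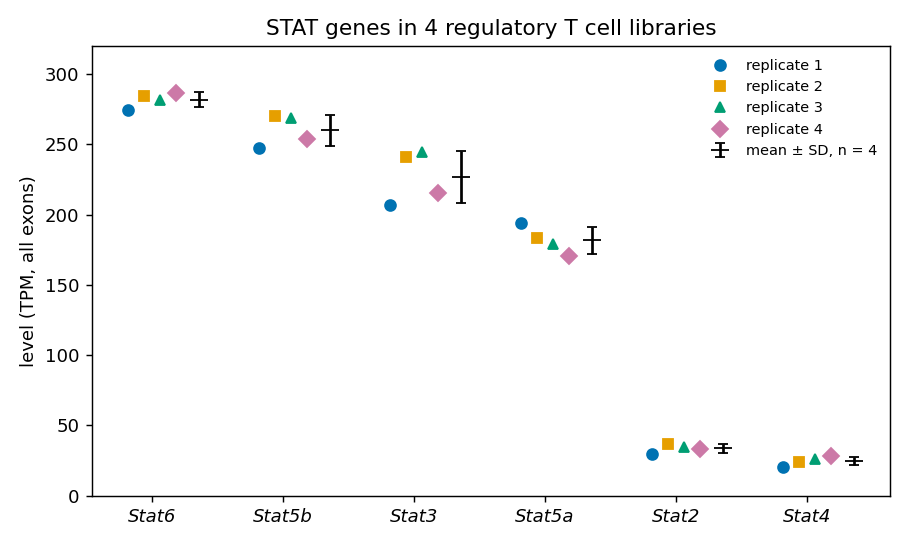
Level of each STAT gene (vertical axis, TPM over all exons) in the 4 libraries; coloured points are replicates 1 to 4 and the black bar is the mean with its SD (n = 4). Stat6, Stat5b, Stat3 and Stat5a lie between 170 and 286 TPM in every library, and Stat2 and Stat4 between 20.7 and 37.0 TPM.

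The 6 genes thus fell into a high set of 4 (Stat6, Stat5b, Stat3, Stat5a) and a low set of 2 (Stat2, Stat4). In the mean over libraries the high set stood at the 92.8th to 95.8th percentile of the 13478 genes tested for variation, Stat2 at the 61.2nd and Stat4 at the 53.5th. Together the 6 genes summed to 972, 1040.0, 1034.6 and 987 TPM in replicates 1 to 4. The high set took 94.2 ± 0.426% of that sum and the STAT5 pair 43.8 ± 1.07%. Stat6 took 27.9 ± 0.832%, Stat5b 25.8 ± 0.245%, Stat3 22.5 ± 1.12%, Stat5a 18.0 ± 1.27%, Stat2 3.32 ± 0.209% and Stat4 2.44 ± 0.301% (SD, n = 4).

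The gap between the sets held in each library. The lowest gene of the high set was 4.97 to 6.54 times the highest of the low set over all exons. It was 4.47 to 6.54 times counting only exons outside other genes, 5.76 to 6.59 times per length of the longest transcript, and 5.75 to 6.59 times per length of the principal transcript. Stat6 exceeded Stat2 by 3.04 ± 0.11 on the log2(TPM + 1) scale and Stat4 by 3.47 ± 0.15, which is 8.20-fold and 11.1-fold. Stat5a, the lowest of the high set, exceeded Stat2 by 2.41 ± 0.18 (5.30-fold) and Stat4 by 2.84 ± 0.25 (7.16-fold). All 8 differences between the sets were above 0 in 4 of 4 libraries. The sets were formed from the mean TPM of these same libraries, so this describes the gap and does not test it.

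Within the high set the order depended on the length used. The level of a gene per length needs a length. The union of all annotated exons was 9527 bases for Stat3, 7133 for Stat5a, 5539 for Stat5b and 4402 for Stat6. The transcripts tagged as principal by the APPRIS annotation measured 4516, 3888, 5213 and 3775 bases. Over all exons the order was Stat6, Stat5b, Stat3, Stat5a. Per principal transcript Stat3 came first at 332 ± 27.0 TPM, followed by Stat5a (231 ± 13.6), Stat6 (228 ± 3.45) and Stat5b (192 ± 7.90). Per longest transcript Stat3 again came first at 283 ± 23.0 TPM, then Stat6 (260 ± 4.22), Stat5a (259 ± 14.8) and Stat5b (219 ± 9.00). The files give counts per gene and not per transcript, so which length fits was not tested.

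**Figure D2:**
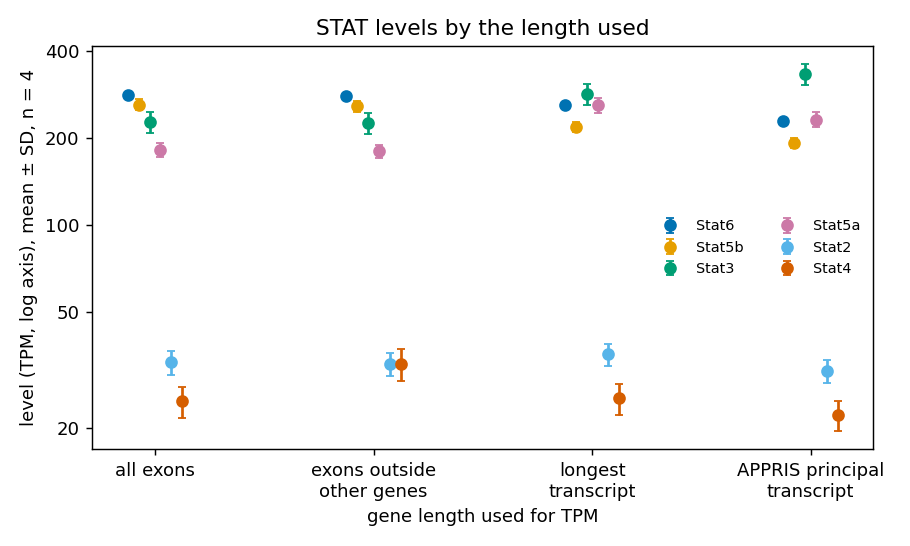
Mean level of each STAT gene (vertical log axis, TPM, with SD over 4 libraries) under 4 definitions of gene length (horizontal axis). Stat3 moves from 227 TPM over all exons to 332 TPM per principal transcript and Stat5b from 260 to 192, while Stat2 and Stat4 stay below 40 TPM throughout.

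Neighbours in the order over all exons were compared within each library. Stat6 exceeded Stat5b by 0.11 ± 0.05 (log2, SD, n = 4), Stat5b exceeded Stat3 by 0.20 ± 0.06, Stat3 exceeded Stat5a by 0.32 ± 0.16 and Stat2 exceeded Stat4 by 0.44 ± 0.15. Each was above 0 in 4 of 4 libraries, and an exact permutation test that flips signs (two-sided) gave each of the 15 pairs p = 0.13, before and after adjustment over them. This is the smallest p that 4 libraries allow. The test therefore cannot pass 0.05 for any pair. The difference of Stat6 and Stat5b turned around with no length correction, and that of Stat5b and Stat3 did so with no length correction, per longest transcript and per principal transcript.

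The difference between Stat2 and Stat4 depended on the length used for Stat4. Of the 3872 exon bases of Stat4, 1033 (26.7%) are also exons of Gm28177, a predicted gene on the same strand (chr1:52077261-52156087). The counting command has no option to assign a fragment to more than 1 gene, and Gm28177 itself held 0, 0, 7 and 0 counts. With those bases left out of its length, Stat4 measured 33.2 ± 4.15 TPM against 33.2 ± 3.04 for Stat2. The difference was then 0.00 ± 0.16 (log2) and above 0 in only 2 of 4, with p = 1 by the exact permutation test. The counts were the same in both cases, and whether fragments in the shared bases were lost was not tested. Per longest transcript and per principal transcript the difference was 0.49 ± 0.15 each, above 0 in 4 of 4 libraries. These scales use the same counts, and the principal transcript of Stat4 shares 24.1% of its 100-base windows with Gm28177. They therefore do not decide the order of Stat2 and Stat4.

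Variation between libraries was tested for every gene with enough counts, by edgeR's goodness-of-fit test against genes of the same abundance. Of 13478 genes 51, or 0.378%, varied beyond the trend at an adjusted p under 0.05. None of the 6 STAT genes did, with edgeR adjusted p = 1.00 for each. At an unadjusted p under 0.05 the count was also 0 of 6, against 805 of 13478 genes, and limma and DESeq2's dispersion outliers picked none of the 6 either. The unadjusted p ran from 0.212 for Stat4 to 0.989 for Stat6 (edgeR). The coefficient of variation of the level was 1.92% for Stat6, 4.25% for Stat5b, 5.36% for Stat5a, 8.27% for Stat3, 9.14% for Stat2 and 12.5% for Stat4. The biological coefficient of variation that the trend gives genes of their abundance was 0.0787 to 0.0949. A p that misses the threshold does not show that the levels were equal in the 4 libraries.

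The ratio of Stat5a to Stat5b was higher in replicate 1 than in the rest. In TPM over all exons it was 0.783 in replicate 1 and 0.680, 0.666 and 0.670 in replicates 2 to 4. Its mean was 0.700 ± 0.0556 over all exons and 1.21 ± 0.0959 per principal transcript, so which of the pair was the more abundant depended on the length. A change of length multiplies the ratio of every library by the same factor, so the order of the libraries is the same on each scale. In raw counts replicate 1 was the library with more Stat5a than Stat5b, 20011 against 19853, a ratio of 1.01 against 0.858 to 0.876 in the others. Neither gene alone passed the test of variation. Gm42418 was also highest in replicate 1, and its part in this ratio was not tested.

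**Figure D3:**
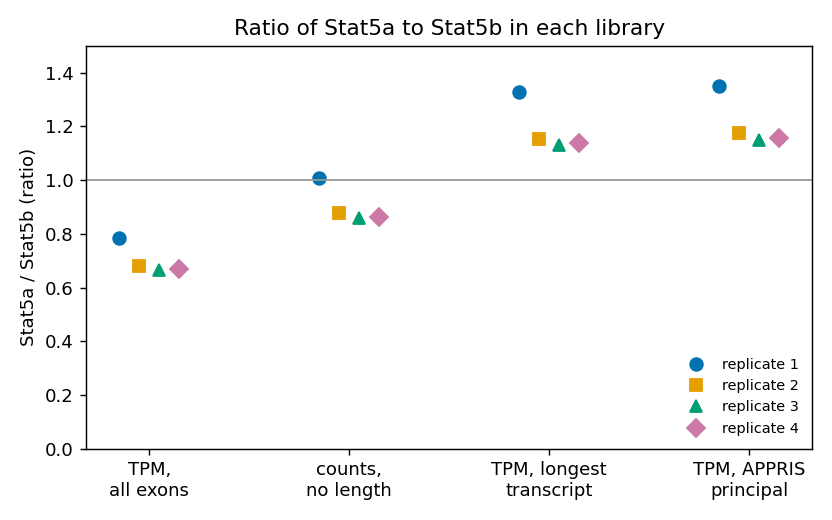
Ratio of Stat5a to Stat5b (vertical axis) in each library on 4 scales (horizontal axis); the grey line marks equal levels. The scales differ by a fixed factor, so replicate 1 lies above the other 3 libraries in each; the ratio is below 1 over all exons and above 1 per transcript length.

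The genes upstream of the STATs were counted from lists of receptors and kinases. Among the 13478 genes tested, 88.9% reached 1 TPM in every library and the median was 21.4 TPM. Several lists here and below also hold genes with too few counts to be tested. Their shares and medians are therefore not directly comparable with these 2 values. Of the STAT5-activating chains 13 of 14 were tested, of the STAT3-activating chains 7 of 13 and of the STAT6-activating chains 1 of 3. All 4 JAK kinases reached 1 TPM, with Jak3, which pairs with the common gamma chain, at 286 ± 9.76 TPM, Jak1 at 158 ± 11.7, Jak2 at 112 ± 12.5 and Tyk2 at 53.4 ± 3.01 TPM. Of 14 STAT5-activating receptor chains 11 did so, and the 3 highest were the chains of the interleukin-2 receptor: Il2ra at 1769 ± 120 TPM, Il2rb at 963 ± 35.9 and Il2rg at 277 ± 10.1. The median of that list was only 10.2 TPM, and genes such as Ghr and Prlr, receptors of growth hormone and prolactin, stayed below 1 TPM. Il7r, the interleukin-7 receptor, stood at 9.20 ± 0.783 TPM.

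Among receptors that feed the other STATs, the STAT3 and STAT6 lists held the most genes near 0. Of 13 STAT3-activating chains 7 reached 1 TPM in every library (list median 2.91 TPM). The interleukin-21 receptor Il21r led at 266 ± 17.8 TPM, ahead of Il6ra at 55.7 ± 5.37 and Il27ra at 52.9 ± 17.2, while Osmr, Lepr and Il22ra1 had no count. Both interleukin-12 receptor chains, which activate STAT4, did so, with Il12rb1 at 90.3 ± 3.87 TPM and Il12rb2, the chain that docks STAT4, at 7.17 ± 1.32 TPM. Of 3 STAT6-activating chains 1 did: Il4ra stood at 148 ± 6.78 TPM, Il13ra1 at 0.232 TPM and Il13ra2 had no count. All 3 interferon receptor chains did, with Ifnar1 at 53.9 ± 0.972 TPM, Ifnar2 at 32.7 ± 3.19 and Ifnlr1 at 2.71 ± 0.881.

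In these 5 receptor lists and the kinase list 2 of the 30 members tested varied between libraries, against the background of 0.378%. The lists were chosen with earlier results of these data known, so this share does not test them. An unadjusted edgeR p under 0.05 was found for 3 of the 30, against 805 of all 13478 genes tested, and limma picked 1. Il27ra, the interleukin-27 receptor, measured 66.7, 68.9, 38.4 and 37.7 TPM in replicates 1 to 4 (edgeR adjusted p = 3.02e-07, limma adjusted p = 0.0202). Replicates 1 and 2 were high, the same libraries in which Xist was high, and the part of that split in the result was not tested. Without any 1 library its edgeR adjusted p ran from 1.44e-06 to 0.00263. Epor, the erythropoietin receptor, measured 2.33, 10.5, 9.54 and 7.96 TPM (edgeR adjusted p = 0.00943). It was low in replicate 1, where Gm42418 was highest (its part was not tested), and was not called without replicate 1 (edgeR adjusted p = 1.00), without replicate 3 (edgeR adjusted p = 0.0681) or by limma (adjusted p = 0.193).

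Cytokine genes that signal through STATs were mostly low in the cells themselves. Of 22 such genes 6 were at 1 TPM or more throughout and 5 were without a count, with a list median of 0.276 TPM. The highest were Il9 at 247 ± 29.1 TPM, Lif at 210 ± 6.76 and Osm at 80.9 ± 3.23 TPM. Il2, the cytokine of the STAT5 pair, stood at 1.57, 1.84, 1.16 and 4.61 TPM. Il9r, the receptor of interleukin-9, reached 7.10 ± 0.874 TPM.

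Inhibitors of the pathway were expressed throughout. Several genes of the SOCS family, though not all, are known as feedback inhibitors that STATs induce. All 8 genes of the family reached 1 TPM (median 42.4 TPM), led by Socs1 at 407 ± 31.8, Cish at 398 ± 15.7 and Socs2 at 90.5 ± 5.32 TPM. All 4 PIAS genes, which encode SUMO ligases named for inhibiting activated STATs, did so at lower levels (median 26.7 TPM), led by Pias4 at 44.6 ± 3.37, Pias2 at 33.1 ± 2.74 and Pias1 at 20.3 ± 2.32 TPM. All 7 phosphatases did (median 106 TPM), led by Ptpn6, which encodes SHP-1, at 455 ± 16.2, Ptpn1 at 365 ± 13.8 and Ptprc, which encodes CD45, at 112 ± 12.1 TPM. All 13 partners and cofactors were expressed (median 34.9 TPM), led by Tcf7 at 420 ± 12, Ndufa13 at 246 ± 32.0 and Ncoa3 at 135 ± 6.28 TPM. None of the 32 tested genes of these 4 lists was called by edgeR for variation, against the background of 0.378%. An unadjusted edgeR p under 0.05 was found for 3 of the 32, against 805 of all 13478 genes tested. Limma and DESeq2's dispersion outliers picked 0.

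Genes known as STAT targets were listed by the STAT they are assigned to, although most answer to other factors too and Socs3 is in both the STAT3 and the STAT5 list. Each list spanned a wide range of levels, and differences between the lists were not tested. Of 16 STAT5 targets 15 reached 1 TPM in every library, with a median of 272 TPM. They were led by Lta, which encodes lymphotoxin alpha, at 2731 ± 118, Il2ra at 1769 ± 120 and Foxp3, the factor that defines these cells, at 463 ± 25.4 TPM. The exception was Gzmb, the gene of granzyme B, at 0.244, 2.42, 1.39 and 1.19 TPM. Of 14 STAT3 targets 11 did (median 19.5 TPM), led by Junb at 1238 ± 74.3, Batf at 119 ± 4.70 and Bcl3 at 99.0 ± 10.5 TPM. Of 8 STAT4 targets 5 did (median 7.54 TPM), led by Furin at 310 ± 13.4, Il18r1 at 38.7 ± 3.72 and Il18rap at 8.48 ± 0.451 TPM. The STAT4 target Ifng averaged 0.223 TPM.

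Of 8 STAT6 targets 4 reached 1 TPM (median 1.76 TPM), with Ccr4 at 214 ± 7.75, Il4ra at 148 ± 6.78 and Gata3 at 40.3 ± 4.50 TPM, and no count of Il4 or Ptgdr2. Of 15 interferon-induced targets of ISGF3, the STAT2 complex, 7 did (median 0.707 TPM), with Bst2 at 240 ± 19.0, Zbp1 at 13.1 ± 2.14 and Isg15 at 22.1, 6.23, 9.68 and 6.98 TPM. Isg15 was highest in replicate 1 (edgeR adjusted p = 0.175), where Stat2 was lowest and Gm42418 highest; the part of the latter was not tested. Irf9, the DNA-binding partner of STAT2, stood at 28.7 ± 2.42 TPM, near the level of Stat2. Of the 44 tested genes of the 5 target lists 1 varied beyond the trend, against the background of 0.378%: the STAT3 target Il17f, at 126, 87.3, 71.0 and 90.7 TPM (edgeR adjusted p = 0.00132). An unadjusted edgeR p under 0.05 was found for 4 of the 44, against 805 of all 13478 genes tested, and limma picked 0. Il17f was high in replicate 1, as Gm42418 was (its part was not tested), and was not called without replicate 1 (edgeR adjusted p = 1.00), without replicate 3 (edgeR adjusted p = 0.194) or by limma (adjusted p = 0.191).

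**Figure D4:**
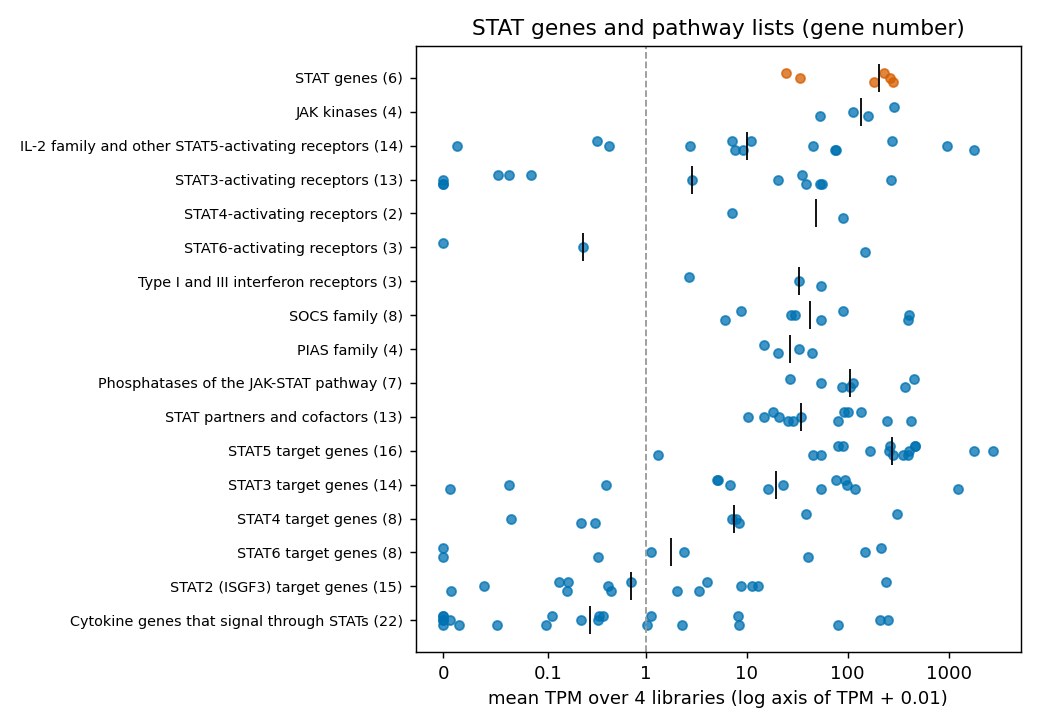
Mean level over 4 libraries (horizontal log axis of TPM + 0.01) of each STAT gene (orange) and each gene of the pathway lists (blue); black ticks are list medians and the dashed line marks 1 TPM. The STAT5 target list has the highest median, 272 TPM, and the cytokine list the lowest of those with more than 3 genes, 0.276 TPM.

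STAT dimers bind palindromic sites, of which TTCNNNGAA is the common form. A form with the same ends and a spacer of 4 bases is used by STAT6 as well. Both read the same on either strand, and matches were sought in the 250 bases before each start in RefSeq's promoter table (GRCm38.p6). TTCNNNGAA occurred in 7.02% of its 32851 promoters and the form with 4 spacer bases in 5.85%. All 6 STAT genes were matched, with 9 promoters, and none held TTCNNNGAA, while that of Stat2 held the longer form. Of the STAT5 targets 12 genes with 17 promoters were matched, and 3 promoters held TTCNNNGAA: those of Lta, Socs3 and Foxp3. It occurred in 3 of 13 promoters of the STAT3 targets and in 4 of 14 of the ISGF3 targets. The longer form occurred in 1 of 17 promoters of the STAT5 targets, 0 of 13 of the STAT3 targets and 3 of 14 of the ISGF3 targets. The target lists of STAT4 and STAT6 were not searched. No motif other than these forms was sought, for ISGF3 or any other factor, so lower-case stretches may hold other sites. The promoters of Stat2, as the member with a match, of Lta, as the highest target, and of Socs3, which is in both the STAT3 and the STAT5 list, are shown with the matches in capitals.
Stat2 (chr10:128270248-128270497, plus strand): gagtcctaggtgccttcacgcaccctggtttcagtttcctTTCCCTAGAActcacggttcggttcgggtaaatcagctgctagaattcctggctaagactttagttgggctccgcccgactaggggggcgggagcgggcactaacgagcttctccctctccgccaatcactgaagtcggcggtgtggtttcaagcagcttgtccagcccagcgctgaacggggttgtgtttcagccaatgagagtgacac
Lta (chr17:35205352-35205601, minus strand): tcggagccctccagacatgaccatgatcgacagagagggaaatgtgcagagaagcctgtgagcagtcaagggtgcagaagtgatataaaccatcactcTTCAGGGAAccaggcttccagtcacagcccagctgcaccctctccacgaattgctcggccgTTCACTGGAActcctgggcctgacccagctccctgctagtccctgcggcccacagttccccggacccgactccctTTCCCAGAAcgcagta
Socs3 (chr11:117969367-117969616, minus strand): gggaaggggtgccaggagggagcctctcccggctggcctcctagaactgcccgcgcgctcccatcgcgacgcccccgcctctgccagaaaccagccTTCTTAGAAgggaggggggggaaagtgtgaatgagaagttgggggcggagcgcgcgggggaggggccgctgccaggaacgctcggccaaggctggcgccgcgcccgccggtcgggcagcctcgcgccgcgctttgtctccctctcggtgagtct
Lta, at 2731 TPM, held 2 matches to TTCNNNGAA and 1 to the longer form, and Socs3, at 54.4 ± 3.73 TPM, held 1 to TTCNNNGAA. A match describes the letters and not a bound site, and these files hold no binding data.

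For each STAT gene the protein-coding genes of most similar level were found, by the largest difference of log2(TPM + 1) over the 4 libraries. Stat6 was nearest to Rtcb, an RNA ligase gene, which differed by at most 0.01, and to Tomm22 (0.05). Stat5b was nearest to Ncf1 and Tpm3 (0.04 each), Stat3 to H1f0 and Gabarap (0.08 each), and Stat5a to Ptpa (0.07) and Efhd2 (0.09). Stat2 was nearest to Rab3gap2 (0.04) and Cblb (0.05), and Stat4 to Gstm4 and Cluap1 (0.07 each). Gstm4, for example, measured 20.03, 24.4, 26.2 and 29.3 TPM, following Stat4 from its low value in replicate 1 to its high value in replicate 4. With 4 libraries, and all named protein-coding genes outside the STAT family searched, such likeness is a description of levels.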

How the data were processed

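RNA was measured in 4 libraries of 1 group. The authors deposited raw counts of read pairs per gene. Per the file headers, featureCounts 1.4.6-p4 counted pairs with both ends mapped over GENCODE M13 exons, with strand setting 2, on alignment files named for STAR. The labels name mm10. The counting command holds no option for reads that map or assign to several places. The text notes were not used. Symbols came from GENCODE M21, which matched 50376 of 50600 identifiers. Not every STAT gene is reported here.

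TPM and CPM were computed here from the counts and the files' exon lengths. A floor of 3 counts is 0.0316 to 0.0919 CPM, for counting error only. Gene pairs were compared within libraries on log2(TPM + 1), with all sign flips enumerated (exact, two-sided) and Benjamini-Hochberg adjustment over 15 pairs. edgeR 4.0.16 in R 4.3.3 tested variation: filterByExpr (minimum count 10), TMM, only an intercept, dispersions from the trend and the upper tail of gof, adjusted over 13478 genes. The code was tested on simulated data. The alternatives were limma 3.58.1, DESeq2 1.42.0, other filters, lengths and pseudocounts, and leaving out each library. The 21 lists hold 157 genes. Named genes were the STAT genes, the 3 highest and any called gene of each pathway list, and the 2 genes nearest in level to each STAT. Other genes were named after their values were seen. The members and lists were chosen with earlier results of these data known.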

Additional observations from a re-analysis of the deposited data

Results flagged for a closer look

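In 5 of 68 values examined, Dixon's test at its 95% level found a single library distant from the remaining 3, and chance alone gives about 1 in 20. None of the 6 STAT levels was among them, but 2 of the 15 differences between STAT genes were, both with Stat5a in replicate 1. Stat5b exceeded Stat5a by 0.35 (log2) in replicate 1 and by 0.55 to 0.58 in the others. Stat5a exceeded Stat2 by 2.67 (log2) in replicate 1 and by 2.28 to 2.34 in the others. The chemokine receptor gene Ccr4 was highest in replicate 2, at 226 TPM against 210.1 to 210.9. Ndufa13 was lowest in replicate 2, at 199 TPM against 256 to 267, and the phosphatase gene Ptpn6 was highest in replicate 4, at 479 TPM against 445 to 447.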

How the results depend on the processing

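All 15 differences between STAT genes kept their direction with a pseudocount of 0.1 TPM and without any 1 library. With exons outside other genes 14 did, and Stat2 minus Stat4 had no direction (0.00337, above 0 in 2 of 4 libraries). Without length correction 4 turned around: Stat6 minus Stat5b was -0.22, Stat6 minus Stat3 -0.80, Stat6 minus Stat5a -0.0626 and Stat5b minus Stat3 -0.58 (log2). Per longest transcript 3 did: Stat6 minus Stat3 was -0.12, Stat5b minus Stat3 -0.37 and Stat5b minus Stat5a -0.24. Per principal transcript, chosen after seeing the data, 4 did: Stat6 minus Stat3 was -0.54, Stat6 minus Stat5a -0.0201, Stat5b minus Stat3 -0.79 and Stat5b minus Stat5a -0.27. By construction these settings differ only in the lengths. The 8 differences between the high and the low set kept their direction in all of them. The 51 genes that varied were 15 by limma and 17 to 56 when 1 library was left out (17 without replicate 1, 23 without replicate 3, 33 without replicate 4); the cause was not tested. No STAT gene was called in any edgeR or limma setting (lowest adjusted p 0.996). No paired analysis was possible because there is 1 group. The depth limits Stat4 most, at 1087 counts in replicate 4.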
